A study of Mus musculus with 9 samples.

Results

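The miR-106b-25 cluster is a group of 3 microRNA (miRNA) hairpins, Mir106b, Mir93 and Mir25, that lie inside 1 intron of the mouse gene Mcm7. Its mature miRNAs were taken by name from the deposited table of liver miRNAs, as the rows that start with mmu-miR-106b-, mmu-miR-93- or mmu-miR-25-. This gave 6 of the 1140 rows, both arms of each hairpin, and each of them had at least 1 count in all 9 samples.

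Livers of male C57BL/6 mice, 8 weeks old at the start, were profiled by small RNA sequencing in 3 groups of 3 mice. The control group was injected with normal saline (NS) for 8 weeks, and the TAA group with thioacetamide (TAA), a hepatotoxin that produces fibrosis, at 200 mg/kg into the peritoneum every 3 days over the same 8 weeks. These mice were killed 72 h after the last injection. The recovery group had the same 8 weeks of TAA and then 8 weeks without it, so that recovery cannot be told apart from elapsed time or age. The livers were whole tissue, where fewer cells of a type and less RNA per cell cannot be told apart. The mRNA libraries, which would hold the host transcript Mcm7, were not analysed here.

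A miRNA hairpin is cut into a duplex with a 5p and a 3p strand, and as a rule 1 of them is kept in the silencing complex while the other is degraded. Bases 2 to 8 of the kept strand, the seed, pair with target mRNAs and lower their translation and stability, so miRNAs with 1 seed share many targets. Mcm7 encodes a subunit of the helicase that unwinds DNA at replication, and its gene is a known target of E2F factors, which act in dividing cells. The cluster is a paralog of miR-17-92 and miR-106a-363. Its known targets include the cell cycle inhibitor p21 and the pro-apoptotic factor Bim.

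In the GENCODE M21 annotation of GRCm38, Mcm7 (ENSMUSG00000029730.16) spans bases 138164583 to 138172422 of chromosome 5 on the minus strand. Mir106b (ENSMUSG00000065514.1) occupies bases 138165737 to 138165818, Mir93 (ENSMUSG00000065527.1) bases 138165523 to 138165610 and Mir25 (ENSMUSG00000065394.1) bases 138165321 to 138165404. All 3 hairpins fall in intron 13 of the transcript Mcm7-201, which is 748 bases long. Mir106b begins 91 bases after the end of exon 13, 126 bases separate it from Mir93, and 118 bases separate Mir93 from Mir25. Mir93 and Mir25 also overlap an exon of Mcm7-202, a transcript annotated as a retained intron, and Mir106b overlaps no annotated exon of Mcm7.

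**Figure D1:**
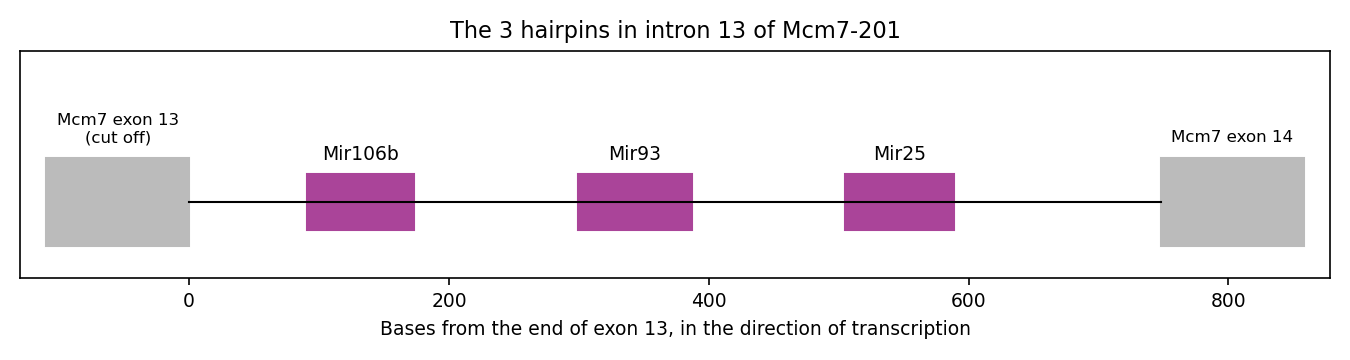
Map of intron 13 of Mcm7-201, with the distance from the end of exon 13 on the horizontal axis in bases, drawn in the direction of transcription. Purple boxes are the hairpins and grey boxes the flanking exons (exon 13 is cut off at the left). Mir106b is the first of the 3 and lies 91 bases after exon 13.

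The mature sequences are shown because the seed decides which other miRNAs the cluster can be compared with. They were read from RefSeq (GRCm38.p6), 5′ to 3′, and capitals mark the seed.
mmu-miR-106b-5p: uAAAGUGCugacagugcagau
mmu-miR-93-5p: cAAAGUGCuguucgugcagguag
mmu-miR-25-3p: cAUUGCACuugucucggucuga
mmu-miR-106b-3p: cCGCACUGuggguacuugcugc
mmu-miR-93-3p: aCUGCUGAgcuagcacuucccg
mmu-miR-25-5p: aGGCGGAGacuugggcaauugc

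mmu-miR-106b-5p and mmu-miR-93-5p shared the seed AAAGUGC but differed at 5 of 21 aligned bases. mmu-miR-25-3p had the seed AUUGCAC. The seeds of the other 3 strands were found in no other row of the table whose sequence was matched (935 of 1106 known names). The members of the other clusters that share a seed and were most abundant are given for comparison, again with the seed in capitals.
mmu-miR-17-5p: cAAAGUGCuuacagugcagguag
mmu-miR-20a-5p: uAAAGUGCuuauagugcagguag
mmu-miR-92a-3p: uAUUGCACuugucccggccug

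mmu-miR-106b-5p differed from mmu-miR-17-5p and from mmu-miR-20a-5p at 3 of 21 aligned bases, and mmu-miR-25-3p from mmu-miR-92a-3p at 3 of 21. How reads that match more than 1 miRNA were assigned is not given in the sources used here. The counts of each member differed by at least 6.20% from those of every other row, so no member was a copy of another row.

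The hairpins are shown with both mature strands in capitals (RefSeq, GRCm38.p6), because the position of the strands decides which arm each row of the table stands for.
Mir106b: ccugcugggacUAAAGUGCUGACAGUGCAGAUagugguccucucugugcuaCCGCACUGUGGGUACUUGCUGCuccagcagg
Mir93: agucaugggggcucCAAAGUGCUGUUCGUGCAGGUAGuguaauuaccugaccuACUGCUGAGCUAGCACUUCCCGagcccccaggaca
Mir25: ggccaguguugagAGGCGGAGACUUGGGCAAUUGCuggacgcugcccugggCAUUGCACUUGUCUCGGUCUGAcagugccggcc

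The libraries held 9949711 to 12983378 counts in control mice, 9071847 to 11320110 in TAA mice and 12211930 to 12462838 in recovery mice. Levels below are counts per 1000000 (CPM) after scaling by TMM, a method that sets the bulk of the miRNAs level between libraries. The TMM factors were 1.43 to 1.63 in the TAA group against 0.738 to 0.792 in the control group and 0.766 to 0.887 in the recovery group. The deposited TPM, which divides by the library total alone, therefore gives larger values in the TAA group: over all rows tested, the log2 fold changes of TAA vs control were 1.12 higher (median) with library totals than with TMM. The 4 hepatocyte miRNAs of the marker list (mmu-miR-122-5p, mmu-miR-122-3p, mmu-miR-192-5p and mmu-miR-194-5p) summed to 273385 to 298714 TPM in control mice, 163290 to 176002 TPM in TAA mice and 242467 to 307943 TPM in recovery mice. Both scales are given for the cluster, since its calls depend on them.

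The cluster was carried by 2 of its 6 strands. mmu-miR-93-5p made up 54.6% of the counts of the cluster over the 9 samples and mmu-miR-25-3p 36.7%. Both strands of miR-106b were present at similar levels, with 4.48% for mmu-miR-106b-3p and 3.96% for mmu-miR-106b-5p. mmu-miR-93-3p (0.0988%) and mmu-miR-25-5p (0.0822%) were at the limit of detection, with 89 and 74 counts in all. The members are 21 to 23 bases long, so their counts were compared with no term for length.

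**Figure D2:**
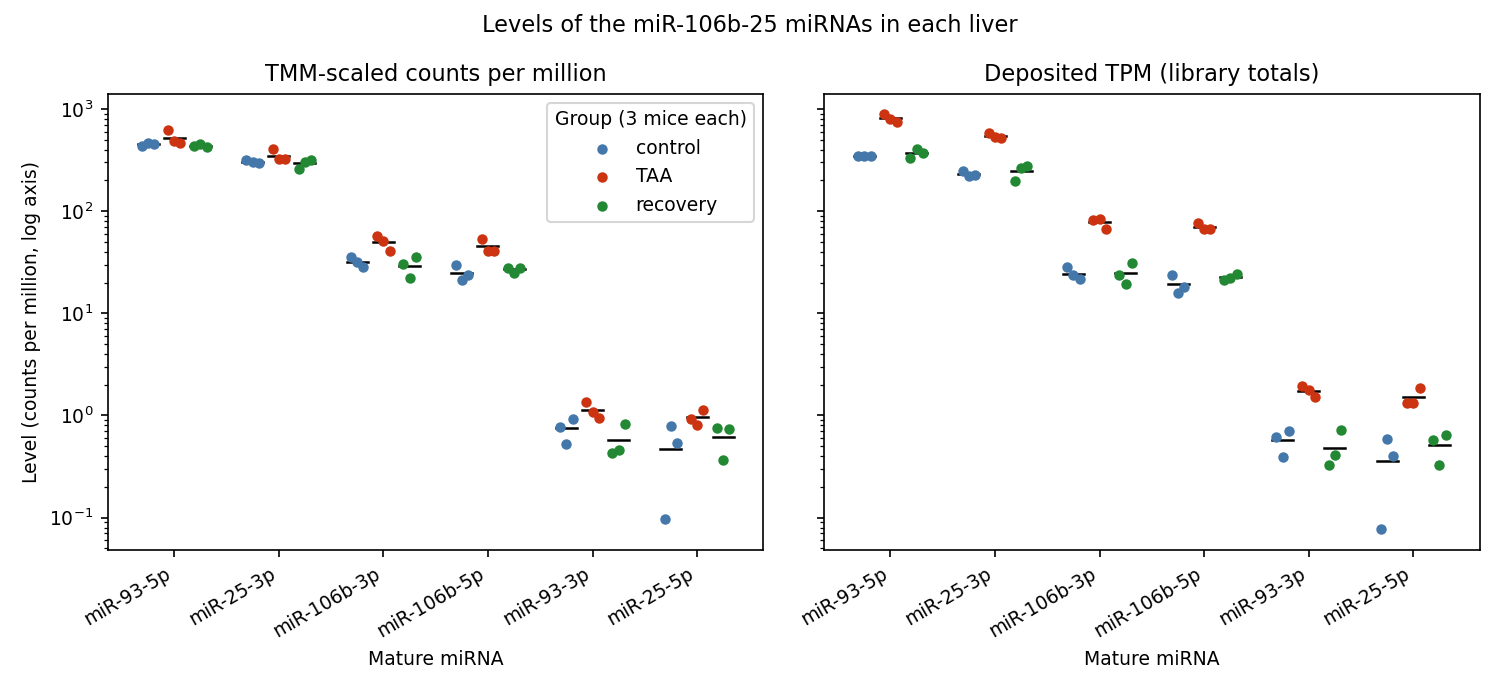
Level of each member in each of the 9 livers, on a log axis, as TMM-scaled counts per 1000000 (left) and as deposited TPM (right). Points are mice (3 per group) and black lines are group means. The TAA group lies above the other groups for all 6 members in the deposited TPM, whereas after TMM scaling mmu-miR-93-5p overlaps between the TAA and control groups.

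mmu-miR-106b-5p is the strand of the first hairpin that carries the miR-17 seed. Its counts were 306, 162 and 180 in control mice, 869, 605 and 610 in TAA mice, and 259, 273 and 305 in recovery mice. After TMM scaling these were 29.8, 21.4 and 23.96 CPM in control mice, 53.6, 40.8 and 40.9 CPM in TAA mice and 27.7, 25.1 and 27.9 CPM in recovery mice. Every TAA mouse was thus above every control and every recovery mouse, and the control and recovery groups overlapped.

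mmu-miR-106b-3p, the other strand of this hairpin, followed it. Its levels were 35.6, 31.8 and 28.5 CPM in control mice, 57.7, 51.3 and 40.7 CPM in TAA mice, and 30.7, 21.95 and 35.4 CPM in recovery mice (TMM). The counts behind these values ranged from 214 to 935. The TAA group again overlapped neither of the other groups, and recovery replicate 2 was the lowest of the 9 mice. The strands of miR-106b come from 1 precursor and are not independent of each other.

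mmu-miR-93-5p, which has the same seed as mmu-miR-106b-5p, was the most abundant member. Its counts ranged from 3436 to 10051. Its levels were 434.2, 464.9 and 457.3 CPM in control mice, 619.8, 489.3 and 461.0 CPM in TAA mice, and 431.6, 454.8 and 422.8 CPM in recovery mice (TMM). TAA replicate 1 stood above the rest, and TAA replicate 3 lay below control replicate 2.

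mmu-miR-25-3p, of the miR-92a seed family, had 2247 to 6544 counts. It measured 313.7, 300.3 and 299.1 CPM in control mice, 403.5, 323.8 and 323.0 CPM in TAA mice, and 259.9, 299.6 and 319.2 CPM in recovery mice (TMM). The TAA group did not overlap the others, but its lowest mouse was only slightly above recovery replicate 3.

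The minor strands were counted too rarely for a firm statement. mmu-miR-93-3p had 8, 4 and 7 counts in control mice, 22, 16 and 14 in TAA mice, and 4, 5 and 9 in recovery mice. mmu-miR-25-5p had 1, 6 and 4 counts in control mice, 15, 12 and 17 in TAA mice, and 7, 4 and 8 in recovery mice. Both passed the filter on low counts only in comparisons with the TAA group, so they had to be higher in the TAA group to be tested at all.

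The first comparison asked how the cluster changed with 8 weeks of TAA. Both strands of miR-106b rose, and a change of mmu-miR-93-5p and mmu-miR-25-3p was not called. mmu-miR-106b-5p rose from 25.03 ± 4.29 to 45.1 ± 7.33 CPM (mean ± SD, n = 3), with a fitted log2 fold change of 0.75 (SE 0.19, FDR = 0.0106 by the edgeR quasi-likelihood test) and a 95% interval of 1.25 to 2.28-fold. mmu-miR-106b-3p rose from 32.0 ± 3.56 to 49.9 ± 8.54 CPM, with a log2 fold change of 0.55 (SE 0.18, edgeR FDR = 0.0327). mmu-miR-93-5p was at 452.1 ± 16.03 CPM in control mice and 523.4 ± 84.7 CPM in TAA mice, with a log2 fold change of 0.12 (SE 0.13, edgeR FDR = 0.462). Its interval of 0.878 to 1.34-fold included no change. mmu-miR-25-3p was at 304.3 ± 8.11 and 350.1 ± 46.3 CPM, with a log2 fold change of 0.11 (SE 0.12, edgeR FDR = 0.472) and an interval of 0.882 to 1.32-fold. The minor strands mmu-miR-93-3p (log2 fold change 0.50, edgeR FDR = 0.272) and mmu-miR-25-5p (0.999, edgeR FDR = 0.183) did not pass.

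These 2 of 6 members called higher stand beside a background of 31.9% of the 420 rows tested. Leaving out the minor strands, which had to be higher to be tested, the count was 2 of 4. No member reached the study's threshold for a differentially expressed miRNA (DEM, at least a 2-fold change with an FDR under 0.05), which 25% of the rows tested passed with a higher level in the TAA group. For 3 of these 4 members the lowest TAA mouse was above the highest control mouse, as was the case for 39.3% of all rows. The median log2 fold change was 0.34 over the 4 members and 0.11 over all rows tested.

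The calls of the first comparison lay close to the threshold. Without control replicate 2 or without control replicate 3 no member was called. The log2 fold change of mmu-miR-106b-5p was then 0.65 (edgeR FDR = 0.0523) or 0.71 (FDR = 0.0522), against 0.75 with all mice. mmu-miR-106b-3p was also lost without TAA replicate 1 (FDR = 0.0605) or TAA replicate 2 (FDR = 0.0721), with log2 fold changes of 0.49 and 0.51. Without TAA replicate 1 the log2 fold changes of mmu-miR-93-5p and mmu-miR-25-3p were 0.04 and 0.05, and without TAA replicate 3 they were 0.22 and 0.18.

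With library totals, the scale of the deposited TPM, all 6 members were higher in the TAA group and all 6 were DEMs. Without the minor strands, which had to be higher to be tested, 4 of 4 were called higher. mmu-miR-106b-5p was at 19.1 ± 3.999 TPM in control mice and 70.0 ± 5.86 TPM in TAA mice, with a log2 fold change of 1.87 (edgeR FDR = 0.000153). mmu-miR-93-5p was at 344.2 ± 1.03 and 812.1 ± 70.2 TPM, and mmu-miR-25-3p at 232.0 ± 14.4 and 543.9 ± 29.6 TPM, with log2 fold changes of 1.24 and 1.23. On this scale 71.9% of all rows tested were called higher and 57.4% were DEMs with a higher level. The median was 1.45 over the same 4 members and 1.23 over all rows. The members kept their order by fold change on both scales, with mmu-miR-93-5p and mmu-miR-25-3p close to the median of all rows and the strands of miR-106b above it.

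**Figure D3:**
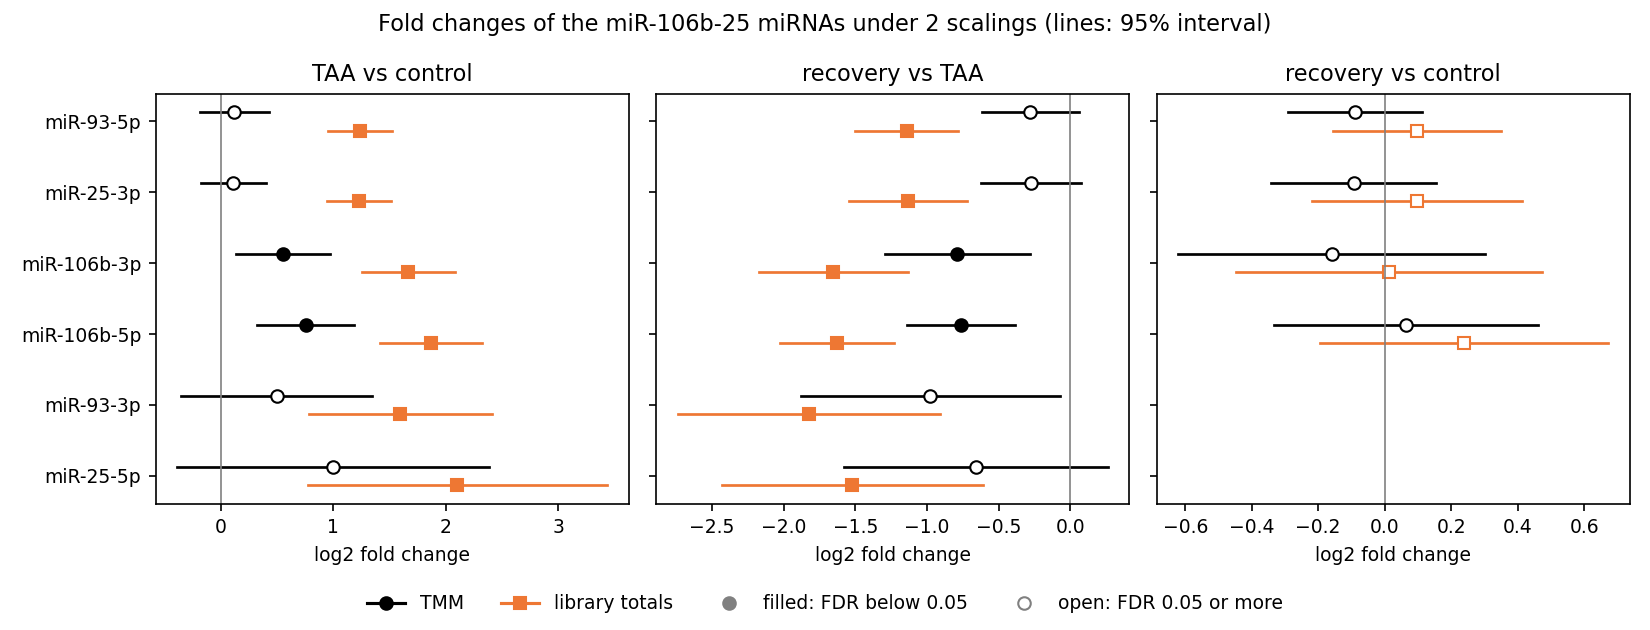
Fitted log2 fold change of each member in the 3 comparisons, with 95% intervals, under TMM (black circles) and library totals (orange squares). Filled symbols have an edgeR FDR below 0.05. The calls of mmu-miR-93-5p and mmu-miR-25-3p depend on the scaling, and those of both miR-106b strands hold under either. Rows without a symbol were not tested.

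The second comparison asked what followed the withdrawal of TAA. Both strands of miR-106b fell in the recovery group relative to the TAA group. mmu-miR-106b-5p fell from 45.1 ± 7.33 to 26.9 ± 1.59 CPM, with a log2 fold change of -0.76 (SE 0.16, edgeR FDR = 0.00876). mmu-miR-106b-3p fell from 49.9 ± 8.54 to 29.3 ± 6.80 CPM, with a log2 fold change of -0.79 (SE 0.22, edgeR FDR = 0.0241). mmu-miR-93-5p was at 436.4 ± 16.6 CPM after recovery (log2 fold change -0.28, SE 0.15, edgeR FDR = 0.172), and mmu-miR-25-3p at 292.9 ± 30.2 CPM (-0.28, SE 0.15, FDR = 0.185). The values of mmu-miR-93-3p (-0.98, edgeR FDR = 0.0794) and mmu-miR-25-5p (-0.66, FDR = 0.225) did not pass either.

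Without TAA replicate 1 the log2 fold changes of mmu-miR-93-5p and mmu-miR-25-3p were -0.10 and -0.12, and without recovery replicate 1 that of mmu-miR-25-3p was -0.12. The count was 2 of 6 members lower, beside 20.7% of the 440 rows tested, or 2 of 4 without the minor strands, which were tested only because of their TAA counts. None was a DEM (14.5% of rows were lower DEMs). In 4 of these 4 members the highest recovery mouse was below the lowest TAA mouse, as in 28.9% of all rows. The median log2 fold change was -0.52 over the 4 members and -0.12 over all rows. With library totals all 6 members were called lower, or 4 of 4 without the minor strands, beside 60% of all rows. The median over the 4 members was then -1.38 against -0.98 over all rows. The call of mmu-miR-106b-5p was kept when any 1 mouse was left out (FDR at most 0.0482), but that of mmu-miR-106b-3p was lost without recovery replicate 1 (FDR = 0.0964), recovery replicate 2 (0.0981), TAA replicate 1 (0.0631) or TAA replicate 2 (0.0730). This comparison shares its TAA samples with the first.

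The third comparison set the recovery group against the control group, to ask whether the levels after recovery differed from those of mice that never had TAA. None of the 4 members tested was called by edgeR, none had an unadjusted p below 0.05, and DESeq2 also called 0. In this comparison 14.1% of the 391 rows tested were called in either direction and 23% had an unadjusted p below 0.05. The log2 fold change was 0.06 for mmu-miR-106b-5p (95% interval -0.33 to 0.46), -0.16 for mmu-miR-106b-3p (-0.62 to 0.30), -0.09 for mmu-miR-93-5p (-0.29 to 0.11) and -0.09 for mmu-miR-25-3p (-0.34 to 0.16). The groups overlapped for all 4 members, as they did for most rows tested. Every recovery mouse was above every control mouse in 17.4% of the 391 rows, and below in 9.97%. The signs are not firm, since with library totals mmu-miR-106b-3p, mmu-miR-93-5p and mmu-miR-25-3p had small positive values (0.01, 0.10 and 0.10). The intervals leave room for a rise of mmu-miR-106b-5p of up to 1.38-fold.

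Ratios between members of the cluster do not depend on the scaling of a library, and they were used to compare the hairpins with each other. The log2 ratio of mmu-miR-106b-3p to mmu-miR-93-5p was -3.61, -3.87 and -4.00 in control mice, -3.43, -3.25 and -3.50 in TAA mice, and -3.81, -4.37 and -3.58 in recovery mice. The ratio was higher in every TAA mouse than in any control or recovery mouse. The mean difference was 0.43 between TAA and control mice and -0.53 between recovery and TAA mice, each with p = 0.1 by an exact two-sided permutation test, which is the smallest p that 3 against 3 mice can give, and 0.36 after Benjamini-Hochberg adjustment over 18 tests. These differences therefore cannot pass a threshold of 0.05 in this design. Without recovery replicate 2 the difference between recovery and TAA mice was -0.30.

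The same held with mmu-miR-25-3p as the reference, with differences of 0.44 and -0.52 (exact permutation p = 0.1 each), the second of which was -0.31 without recovery replicate 2. With the 5p strand of miR-106b in place of the 3p strand, a choice made after seeing the data, the log2 ratio to mmu-miR-93-5p was -4.18 ± 0.29 in control mice, -3.53 ± 0.05 in TAA mice and -4.02 ± 0.14 in recovery mice, again with no overlap between the TAA group and the others. As a share of the counts of the cluster, mmu-miR-106b-5p went from 3.07 ± 0.53% in control mice to 4.64 ± 0.12% in TAA mice and 3.42 ± 0.28% in recovery mice.

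The ratio of mmu-miR-25-3p to mmu-miR-93-5p was level across the groups. It was -0.57 ± 0.09 in control mice, -0.58 ± 0.06 in TAA mice and -0.58 ± 0.16 in recovery mice on the log2 scale, with mean differences of -0.01, 0.00 and -0.01 in the 3 comparisons (exact permutation p of at least 0.9). Values of single mice ran from -0.73 to -0.41.

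**Figure D4:**
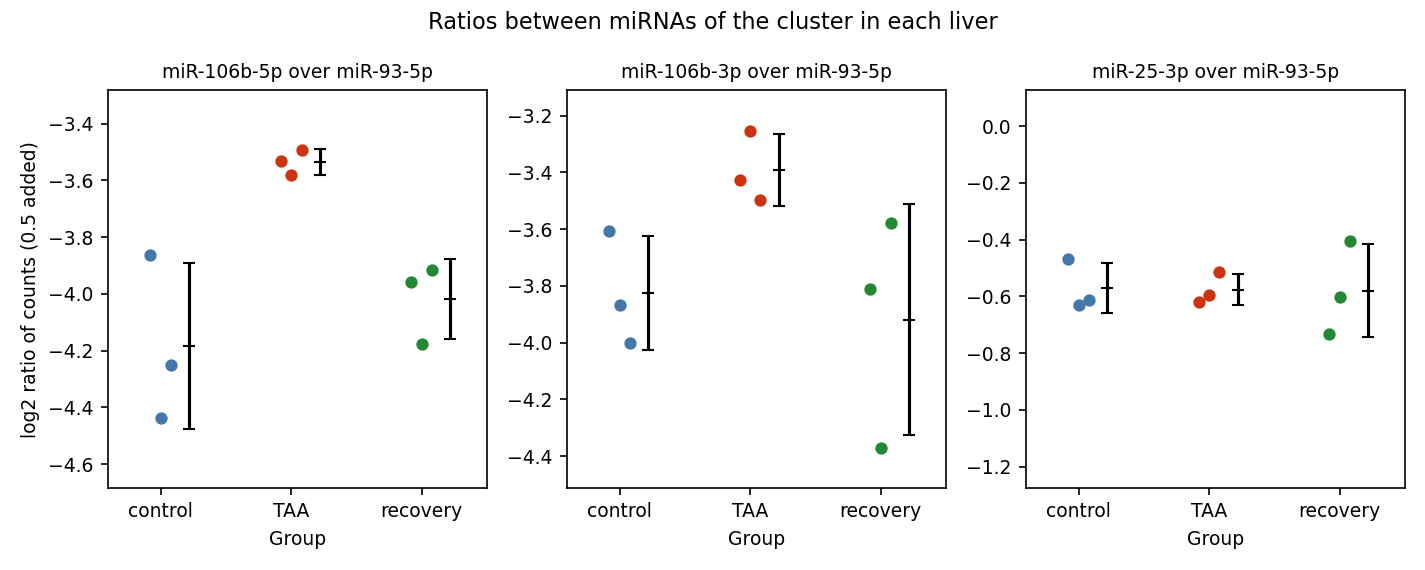
Log2 ratio of the counts of 2 members in each liver, with 0.5 added to each count. Points are mice, and black bars beside them are the mean ± SD of the group (n = 3). All panels span the same range of log2 units. Both miR-106b strands are higher relative to mmu-miR-93-5p in every TAA mouse than in any other mouse, and mmu-miR-25-3p is not.

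The arms of the hairpins kept their order in all 9 mice for miR-93, where the 5p strand had 439 to 900 times the counts of the 3p strand, and for miR-25, where the 3p strand dominated. miR-106b had no dominant strand. Its log2 ratio of 5p to 3p was -0.36 ± 0.18 in control mice, -0.14 ± 0.17 in TAA mice and -0.10 ± 0.27 in recovery mice, and no pair of groups was separated (exact permutation p of 0.3, 1 and 0.3). For miR-93 the log2 ratio of 5p to 3p was 8.82 ± 0.06 in TAA mice and 9.52 ± 0.51 in recovery mice without overlap (exact permutation p = 0.1, adjusted 0.36), on 4 to 22 counts of the 3p strand.

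The cluster as a whole, summed over its 6 rows, was at 814, 820 and 810 CPM in control mice, 1137, 907 and 868 CPM in TAA mice and 751, 802 and 807 CPM in recovery mice (TMM). The TAA mice lay above all others, and TAA replicate 1 set much of the difference: the log2 difference of TAA vs control was 0.24 with it and 0.12 without it, and that of recovery vs TAA -0.29 and -0.17. The cluster took 0.0621 ± 0.0021% of all counts in control mice, 0.151 ± 0.0111% in TAA mice and 0.0665 ± 0.0077% in recovery mice.

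Paralogs of the cluster were compared through the miR-17-92 cluster of chromosome 14, of which all 12 listed strands were in the table. The summed counts of the miR-106b-25 rows were 1.67 ± 0.05 times those of miR-17-92 in control mice, 1.96 ± 0.43 times in TAA mice and 1.82 ± 0.29 times in recovery mice. The TAA mice were spread, with ratios of 1.53, 1.96 and 2.38 in replicates 1, 2 and 3. Their counts of miR-17-92 were 12021, 6850 and 5422. The ratios of the groups overlapped.

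Of the 8 miR-17-92 strands tested in TAA vs control, 1 was called higher (31.9% of all rows). This was mmu-miR-18a-5p, which rose from 1.71 ± 0.81 to 8.26 ± 6.68 CPM with a log2 fold change of 2.11 (edgeR FDR = 0.0216). It was not called without control replicate 2 (FDR = 0.0690) or control replicate 3 (0.0772), and without TAA replicate 1 its log2 fold change was 1.28 (FDR = 0.0286). In recovery vs TAA, mmu-miR-18a-5p (-2.54, FDR = 0.00935) and mmu-miR-17-5p (-1.19, FDR = 0.0399) were lower, 2 of 8 beside 20.7% of all rows. Without TAA replicate 1 the value of mmu-miR-18a-5p was -1.62 and that of mmu-miR-17-5p -0.52. mmu-miR-17-5p was at 43.4 ± 2.46 CPM in control mice, 73.5 ± 46.9 CPM in TAA mice and 32.1 ± 2.02 CPM in recovery mice, and its call was lost without TAA replicate 1 (FDR = 0.0613) or without any 1 recovery mouse. In recovery vs control mmu-miR-17-5p was also lower (-0.47, edgeR FDR = 0.0473), a call that did not hold without any 1 of the 6 mice. With library totals 8 of 8 strands were higher in TAA vs control (71.9% of all rows), 6 of 8 lower in recovery vs TAA (60%) and 0 of 7 called in recovery vs control (16.1% in either direction). Among the 8, mmu-miR-92a-1-5p passed the filter on low counts only in comparisons with the TAA group. Over these 8 strands the median log2 fold change with TMM was 0.35 for TAA vs control. The 4 members of the miR-106b-25 cluster had a median of 0.34 and all rows 0.11. For recovery vs TAA these medians were -0.52, -0.52 and -0.12. By its median the cluster thus did not differ from miR-17-92 in either comparison.

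The miR-106a-363 cluster of the X chromosome was hardly expressed, with 8 to 114 counts per mouse over the 6 of its 10 strands that were in the table. Its only tested strand, mmu-miR-363-3p, which has the seed of mmu-miR-25-3p, was lower in the recovery group than in the control group (log2 fold change -2.64, edgeR FDR = 0.0260), from counts of 11 to 35 in control mice and 1 to 13 in recovery mice. That call was lost when any of 4 single mice was left out (control replicate 1 or 3, recovery replicate 1 or 2), and its log2 fold change was -4.35 without recovery replicate 3.

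Taken by seed, 8 rows outside the cluster share a seed with one of its members, and 6 of them were tested against the control or the recovery group. None was called in TAA vs control by edgeR, where 58.3% of all rows were called in either direction. In recovery vs TAA 2 of 6 were lower, beside 20.7% of the 440 rows tested. These were mmu-miR-17-5p and mmu-miR-92b-3p (-2.57, edgeR FDR = 0.0415, on 3 to 98 counts). mmu-miR-92b-3p was not called without TAA replicate 1, where it was -1.18, or without any 1 recovery mouse. It passed the filter on low counts only in comparisons with the TAA group, so it had to be higher there to be tested. With library totals 5 of 6 were higher in TAA vs control, beside 71.9% of all rows, and 6 of 6 lower in recovery vs TAA, beside 60%. Both counts include mmu-miR-92b-3p. With TMM the median log2 fold change of these 6 rows, again with mmu-miR-92b-3p, was 0.16 for TAA vs control. For recovery vs TAA it was -0.94. mmu-miR-92a-3p, which differs from mmu-miR-25-3p at 3 bases, was at 261.3 ± 6.90 CPM in control mice, 231.6 ± 50.0 CPM in TAA mice and 256.1 ± 42.8 CPM in recovery mice. Its log2 fold change in TAA vs control was -0.26 (edgeR FDR = 0.217) with TMM and 0.85 (FDR = 0.00224) with library totals. In recovery vs TAA it was 0.12 (FDR = 0.663) with TMM and -0.75 (FDR = 0.00829) with library totals. The direction thus depends on the scaling.

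The miRNAs whose pattern over the 9 samples was most like the cluster were found by Pearson's r with the mean log2(CPM + 1) of mmu-miR-106b-5p, mmu-miR-106b-3p, mmu-miR-93-5p and mmu-miR-25-3p, among 222 rows with a mean of at least 10 CPM. They were mmu-miR-182-5p (r = 0.952), mmu-miR-183-5p (0.946), mmu-miR-96-5p (0.942), mmu-miR-99b-5p (0.938) and mmu-miR-218-5p (0.927). mmu-miR-182-5p, mmu-miR-183-5p and mmu-miR-96-5p are products of 1 other cluster. All 5 were called higher in TAA vs control, beside 31.9% of all rows. Their log2 fold changes ran from 0.61 for mmu-miR-99b-5p to 4.40 for mmu-miR-218-5p. The rows were chosen for likeness to a cluster that was highest in the TAA mice. Their higher level there is thus no separate result. With library totals 4 of these 5 were again among the first 5. The r values describe 3 groups of 3 mice that share their scaling, and much of them is the step between the groups.

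Markers of liver cell types moved with the groups in the same comparisons. In TAA vs control (TMM), 0 of 4 hepatocyte miRNAs were higher and 4 lower, 4 of 5 leukocyte miRNAs were higher, 3 of 3 biliary epithelial miRNAs were higher, 3 of 5 stellate cell and myofibroblast miRNAs were higher, 2 of 2 endothelial miRNAs were lower and 2 of 4 red cell miRNAs were lower, beside 31.9% of all rows higher and 26.4% lower. With library totals 2 of 2 endothelial miRNAs were higher instead, 2 of 4 hepatocyte miRNAs were lower and 0 of 4 red cell miRNAs were called. On that scale 5 of 5 leukocyte, 3 of 3 biliary epithelial and 5 of 5 stellate cell and myofibroblast miRNAs were higher. Over all rows, 71.9% were then higher and 5.24% lower. In recovery vs TAA (TMM), 4 of 4 hepatocyte and 2 of 2 endothelial miRNAs were higher, 3 of 5 leukocyte, 3 of 3 biliary epithelial and 3 of 5 stellate cell and myofibroblast miRNAs were lower, and 0 of 4 red cell miRNAs were called, beside 18.4% of all rows higher and 20.7% lower. With library totals 2 of 4 hepatocyte miRNAs were higher in recovery vs TAA, and of the endothelial miRNAs 0 of 2 were higher and 1 lower. On that scale 5 of 5 leukocyte, 3 of 3 biliary epithelial and 5 of 5 stellate cell and myofibroblast miRNAs were lower. Again 0 of 4 red cell miRNAs were called. Over all rows, 4.09% were then higher and 60% lower. The summed leukocyte markers ranged from 196 to 224 CPM in control mice, 286 to 330 CPM in TAA mice and 156 to 234 CPM in recovery mice. The summed biliary markers ranged from 565 to 740 CPM, 3248 to 5469 CPM and 1203 to 1371 CPM. In recovery vs control (TMM) 3 of 3 biliary miRNAs were also higher (12% of all rows). In that comparison 2 of 4 red cell miRNAs were lower (2.05% of all rows). Of the stellate cell and myofibroblast miRNAs 1 of 5 was higher, and no hepatocyte, leukocyte or endothelial miRNA was called. The summed stellate cell and myofibroblast markers overlapped between the groups (25481 to 31110 CPM, 18031 to 39498 CPM and 21870 to 35801 CPM). This sum joins rows that differed in TAA vs control (TMM). The log2 fold changes were 1.44 for mmu-miR-199a-5p, 1.66 for mmu-miR-199a-3p and 2 for mmu-miR-214-3p. They were -0.02 for mmu-miR-143-3p and -0.25 for mmu-miR-145a-5p. No marker was at 0 in any mouse. The part of these cell types in the levels of the miR-106b-25 miRNAs was not tested.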

How the data were processed

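Small RNA libraries of 9 mouse livers were analysed. Per the labels and methods, the authors extracted total RNA with TRIzol, mapped the reads to mm10 with Bowtie (1.3.0) and counted mature miRNAs. The deposited table holds raw counts and the deposited TPM, which equalled the count per 1000000 counts of the library (largest difference 4.96e-05). Groups were taken from the sample titles, and each sample was a different mouse. Rows passing filterByExpr (minimum count 10) were tested for each pair of groups with the quasi-likelihood test of edgeR (4.0.16, R 4.3.3) after TMM scaling in the 6 samples compared, with Benjamini-Hochberg adjustment (FDR) over all rows tested. SE is the log2 fold change over the root of F. CPM in the text uses TMM factors over all 9 samples, so ratios of its means differ slightly from fitted folds. The tests were checked on simulated counts. DESeq2 (1.42.0), limma (3.58.1, on log2(TPM + 1) or log2(TPM + 0.1)), other scalings, filters and thresholds, and the removal of each mouse were alternatives. The members, marker lists and comparisons were chosen with earlier results of these data known. Named miRNAs are all members, the relatives called with TMM in any comparison and the 5 most similar rows. Further rows are named as markers, for their sequence or for a filter or setting. The levels of mmu-miR-92a-3p were added after its values were seen.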

Additional observations from a re-analysis of the deposited data

How the results depend on the processing

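In TAA vs control, 2 members passed an edgeR FDR of 0.05 with TMM, with size factors of DESeq2, in the DESeq2 test, with no filter, with all 9 samples in 1 fit, without the rows mmu-miR-122b-3p and mmu-miR-122-5p, and with the replicate number as a block. The number was 6 with library totals and with limma on log2(TPM + 1) or log2(TPM + 0.1), 4 with a mean of at least 10 CPM, and 0 at a fold change of at least 2. The counts of 6 include both minor strands, which had to be higher in the TAA group to be tested. Leaving out 1 mouse gave 0 to 2. In recovery vs TAA the same settings gave 2, 6, 4 and 0, leaving out 1 mouse gave 1 to 2, and the replicate block gave 1, with mmu-miR-106b-3p at FDR = 0.0570. The cause was not tested. In recovery vs control 0 members passed in every setting. With a mean of at least 10 CPM, mmu-miR-93-5p and mmu-miR-25-3p were called in TAA vs control (log2 fold changes 0.34 and 0.33, FDR = 0.0422 and 0.0260), in a table of 233 rows.

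The replicate numbers did not pair the mice: deviations of mice with the same number correlated from -0.24 to 0.24, and 3 of 9 mice correlated best with their own number. The block changed no other count of calls.

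The summed cluster differed between TAA and control mice by 1.28 on the log2 scale with library totals, between recovery and TAA mice by -1.19 and between recovery and control mice by 0.0925, and by -0.13 in recovery vs control with size factors of DESeq2, against 0.24, -0.29 and -0.05 with TMM. The ratio of miR-106b to miR-93 and to miR-25 differed by 0.65 and 0.66 in TAA vs control with the 5p strand, against 0.43 and 0.44 with the 3p strand. Signs of the fold changes of members turned only in recovery vs control. With library totals mmu-miR-106b-3p was at 0.0137, mmu-miR-25-3p at 0.10 and mmu-miR-93-5p at 0.10. With limma, mmu-miR-25-3p was at 0.0831 and mmu-miR-93-5p at 0.0922 with a pseudocount of 1, and at 0.0834 and 0.0924 with 0.1. With 1 mouse left out, mmu-miR-25-3p ranged from -0.178 to 0.0086, with the highest value without recovery replicate 1. mmu-miR-106b-3p ranged from -0.337 to 0.0306, with the highest value without recovery replicate 2. mmu-miR-106b-5p ranged from -0.0633 without control replicate 2 to 0.207.

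With 3 mice per group the smallest exact permutation p is 0.1. The minor strands had at most 22 counts per mouse, and small changes in them were not detectable at this depth.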
